A study of Mus musculus with 12 samples.

Results

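The 10 genes described here encode 5 receptor and ligand pairs of the tumour necrosis factor (TNF) family that costimulate immune cells. The receptors are 4-1BB (Tnfrsf9), OX40 (Tnfrsf4), CD27 (Cd27), GITR (Tnfrsf18) and CD40 (Cd40), and their ligands are encoded by Tnfsf9, Tnfsf4, Cd70, Tnfsf18 and Cd40lg. They were listed by name, with earlier results of these data known, and all 10 were found by gene identifier among the 56884 genes of each count table. A filter on low counts kept 8 of them among 17757 genes. Cd70 and Cd40lg did not pass it and are given by their counts alone.

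RNA was sequenced from 12 mouse tumours of wild-type genotype, each grown from TS/A cells, a mouse mammary carcinoma line, together with cancer-associated fibroblasts (CAF). There were 3 libraries in each of 4 groups: radiotherapy combined with muFAP-4-1BBL (RT_FAP41BBL), radiotherapy by itself (RT), muFAP-4-1BBL by itself (FAP41BBL), and tumours whose treatment label reads None, which the design text calls vehicle (control). The agent muFAP-4-1BBL joins the ligand of 4-1BB to a part that binds FAP (fibroblast activation protein), an enzyme that activated fibroblasts carry on their surface, and is called the agonist below. The labels give no dose, harvest time, batch or animal, so nothing shows that the libraries of a group came from separate animals, and each p-value reflects only how these samples scatter, possibly for technical reasons.

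T cells show 4-1BB, OX40 and GITR on their surface mainly after they meet antigen, and regulatory T cells carry OX40 and GITR at rest. CD27 is present on resting T cells, and CD40 sits on antigen-presenting cells, where its ligand on helper T cells activates them. All of these receptors bind TRAF adaptor proteins inside the cell and switch on NF-kB, a transcription factor that raises survival genes of the BCL2 family.

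Every library held between 34076477 and 42067481 counts, and levels are given as CPM, in which each count is divided by the size of its library so that libraries of unequal depth can be set side by side. The labelled tissue was checked by its markers: the epithelial keratin gene Krt8 lay between 231 and 437 CPM and the fibroblast collagen gene Col1a1 between 1896 and 3354 CPM, whereas Epcam, a common epithelial surface marker, lay between 0.0824 and 8.18 CPM. Skeletal muscle transcripts, summed over 15 genes, stood apart in the RT group, at 6217 to 14371 CPM, against 574 to 1064 CPM in RT_FAP41BBL, 91.3 to 2152 CPM in FAP41BBL and 62.6 to 660 CPM in control. T cell transcripts, summed over 14 genes with none at 0 in any library, lay at 125 to 169 CPM in RT_FAP41BBL, 48.6 to 89.0 CPM in RT, 114 to 137 CPM in FAP41BBL and 70.5 to 117 CPM in control. In whole-tumour RNA, fewer cells of a type and less RNA per cell cannot be told apart.

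The sequences before the start sites of the receptor genes are shown first, because the 4-1BB gene has a pair of annotated start sites and the OX40 and GITR genes lie side by side. They come from RefSeq on build GRCm38.p6, which differs from the GRCm39 build of the count tables, and each holds 250 bases before and 50 bases after the start, read 5′ to 3′ on the gene's strand. Promoters were at hand for 5 members, which besides those printed include Cd27 and Tnfsf18. Tnfsf9, Tnfsf4, Cd70, Cd40 and Cd40lg were not among them. Start site 1 of Tnfrsf9 spans chr4:150919905-150920204 and start site 2 spans chr4:150927749-150928048, both on the plus strand. Capitals mark the letters of a searched motif.
Tnfrsf9 start site 1: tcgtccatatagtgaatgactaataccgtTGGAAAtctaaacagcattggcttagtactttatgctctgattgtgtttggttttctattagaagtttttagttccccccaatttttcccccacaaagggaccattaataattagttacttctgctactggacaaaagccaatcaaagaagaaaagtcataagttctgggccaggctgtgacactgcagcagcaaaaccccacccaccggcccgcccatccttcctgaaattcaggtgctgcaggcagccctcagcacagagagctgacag
Tnfrsf9 start site 2: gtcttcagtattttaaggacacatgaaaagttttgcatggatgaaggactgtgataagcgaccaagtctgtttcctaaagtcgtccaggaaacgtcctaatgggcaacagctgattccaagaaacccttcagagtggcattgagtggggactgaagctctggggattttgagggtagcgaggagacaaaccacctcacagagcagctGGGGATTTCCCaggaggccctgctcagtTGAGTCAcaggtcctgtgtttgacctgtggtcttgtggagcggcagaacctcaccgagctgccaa
In start site 2 the first capital run is a pair of overlapping matches to the NF-kB consensus, beginning 43 and 42 bases before the start, and the second is an AP-1 match beginning 15 bases before it. The capitals of start site 1 are the core bound by NFAT, a factor activated through the T cell receptor, and begin 221 bases before the start. The OX40 gene is shown at chr4:156013445-156013744 and the GITR gene at chr4:156026072-156026371, both on the plus strand.
Tnfrsf4: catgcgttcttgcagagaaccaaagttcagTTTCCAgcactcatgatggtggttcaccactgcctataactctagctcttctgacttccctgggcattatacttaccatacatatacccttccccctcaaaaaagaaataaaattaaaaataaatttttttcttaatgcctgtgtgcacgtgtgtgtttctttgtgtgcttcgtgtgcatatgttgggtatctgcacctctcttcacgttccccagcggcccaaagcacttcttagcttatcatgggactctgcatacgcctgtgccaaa
Tnfrsf18: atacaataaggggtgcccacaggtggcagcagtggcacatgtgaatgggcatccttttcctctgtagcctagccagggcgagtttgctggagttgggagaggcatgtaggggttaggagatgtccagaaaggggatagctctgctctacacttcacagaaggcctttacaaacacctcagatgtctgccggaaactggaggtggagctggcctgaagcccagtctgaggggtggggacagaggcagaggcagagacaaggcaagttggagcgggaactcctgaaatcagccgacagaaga
The capitals of Tnfrsf4 are the NFAT core on the opposite strand, 220 bases before the start, and no searched motif was found in this window of Tnfrsf18 or of Cd27. Tnfsf18, not printed, holds TATAAA beginning 34 bases before its start. On both strands, the search covered the NF-kB consensus, TGANTCA for AP-1, TGGAAA for NFAT, the core of interferon response elements and TATAAA for the TATA box. Of 32851 mouse promoters of the same length, 4.51% held the NF-kB consensus, 7.81% the AP-1 letters, 21.4% the NFAT core, 3.44% the interferon response core and 13.6% the TATA letters. No matches overlapped other than the NF-kB pair. A match is a description of the letters, not a measured site.

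The members differed widely in level. To compare genes, levels were divided by exon length as well and are given as TPM. The receptor and ligand of the 4-1BB pair were the most abundant of the 10: Tnfrsf9 (ENSMUSG00000028965.14, GRCm39 chromosome 4, 150999019 to 151030559) averaged 37.7 TPM over the 12 libraries with a range of 26.2 to 48.9, and Tnfsf9 (ENSMUSG00000035678.9, chromosome 17, 57412325 to 57414757) averaged 31.9 TPM with a range of 25.8 to 37.5. The ranges of this pair overlapped. Cd40 (ENSMUSG00000017652.17, chromosome 2, 164897547 to 164914868) followed at 19.6 TPM on average.

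The other receptors formed a middle group whose ranges overlapped. Tnfrsf18 (ENSMUSG00000041954.19, chromosome 4, 156110621 to 156113352) averaged 9.63 TPM, Tnfrsf4 (ENSMUSG00000029075.7, chromosome 4, 156098300 to 156101069) 8.59 TPM and Cd27 (ENSMUSG00000030336.15, chromosome 6, 125209585 to 125213973) 5.56 TPM. Their ligands were lower. Tnfsf4 (ENSMUSG00000026700.5, chromosome 1, 161222980 to 161245981) averaged 2.38 TPM and Tnfsf18 (ENSMUSG00000066755.3, chromosome 1, 161322224 to 161332859) 1.33 TPM, and Cd40lg and Cd70 averaged 0.248 and 0.147 TPM. Among the 17757 kept genes, 71.6% had a lower mean TPM than Tnfrsf9, 34.8% a lower one than Cd27 and 17.2% a lower one than Tnfsf18.

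**Figure D1:**
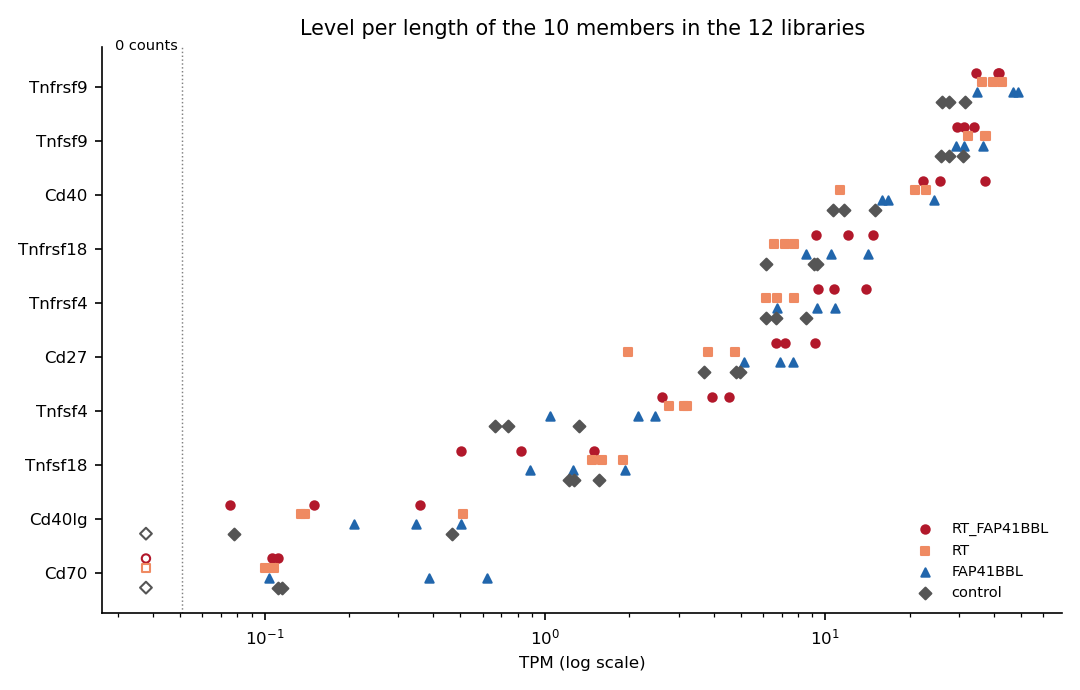
Level per length (TPM, log scale) of the 10 members, from the highest mean at the top to the lowest at the bottom, with a point for each of the 12 libraries, coloured and shaped by group. Open points left of the dotted line are libraries with 0 counts. Tnfrsf9 and Tnfsf9 lie between 25.8 and 48.9 TPM, and Cd70 and Cd40lg below 1 TPM in every library.

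Across the comparisons, the calls among the 8 tested members were all rises. Against control, RT_FAP41BBL raised Cd40 and Tnfsf4, which is 2 of 8 members, where 7.91% of all 17757 genes passed the same test in either direction and 5.59% were higher. RT raised Tnfsf4 against control, 1 of 8 members (9.62% of all genes in either direction, 6.57% higher). RT_FAP41BBL raised Cd27 against RT, 1 of 8 members (5.76% in either direction, 3.36% higher). The test was edgeR's quasi-likelihood test over all kept genes with Benjamini-Hochberg adjustment, and a change passed at an adjusted p under 0.05.

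Between all 6 irradiated and all 6 non-irradiated libraries Tnfsf4 was higher, 1 of 8 members (10.1% of all genes in either direction, 6.51% higher). No member passed by edgeR in FAP41BBL against control, where 0.00563% of genes did. There 2 members had an unadjusted p under 0.05, and DESeq2 and limma-voom passed none. None passed in RT_FAP41BBL against FAP41BBL either, where 0.946% of genes did, with 1 member at an unadjusted p under 0.05 and none by DESeq2 or limma-voom. For the 6 agonist-treated libraries against the 6 agonist-free ones, edgeR passed no member and 0.349% of genes, limma-voom none and DESeq2 2 members (Cd27 and Tnfrsf18), and 6 members had an unadjusted p under 0.05. No member had an interaction that passed by edgeR, DESeq2 or limma-voom, where 0.152% of genes did by edgeR (0.0282% with a positive value), and 1 member had an unadjusted p under 0.05. A single test of any difference among the 4 groups passed Tnfsf4 (adjusted p = 0.0147), 1 of 8 members, and 11.3% of genes. Without control replicates 2 or 3 in turn its adjusted p was 0.0576 and 0.050, both above the threshold.

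In libraries that did not overlap, 6 of 8 members were higher in RT_FAP41BBL than in control and none lower, where 20.0% of all genes were higher and 18.5% lower without overlap. The median log2 change of the 8 was 0.64 in that comparison, beside 0.01 over all genes. It was 0.35 for RT and 0.48 for FAP41BBL against control, with 3 members higher without overlap in each, where 14.9% of genes for RT and 5.7% for FAP41BBL were. None was lower without overlap in either, where 11.1% and 5.07% of genes were. Between RT_FAP41BBL and RT, 3 members were higher and 1 lower without overlap (14.5% and 13.4% of genes), with a median of 0.44. Only members that passed the low-count filter enter these counts.

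**Figure D2:**
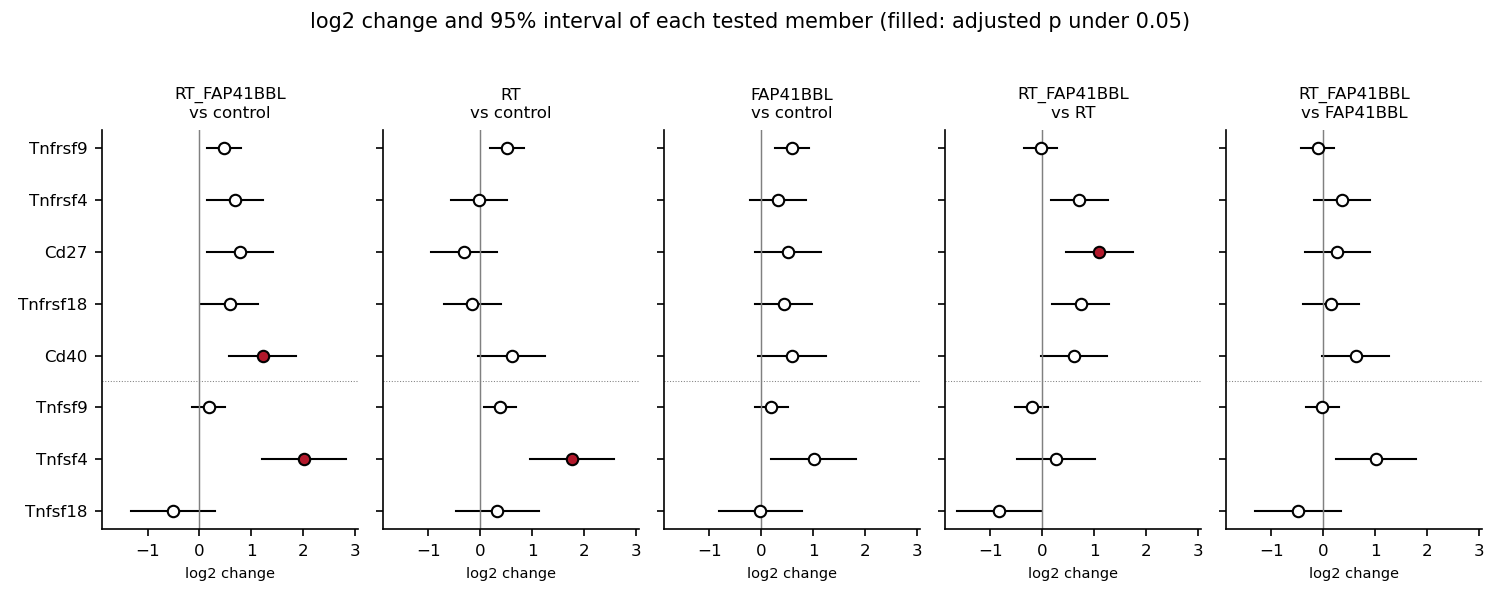
log2 change (points) with its 95% interval (lines) of the 8 tested members in 5 comparisons, receptors above the dotted line and ligands below it. Filled points passed at an adjusted p under 0.05: Cd40 and Tnfsf4 in RT_FAP41BBL against control, Tnfsf4 in RT against control, and Cd27 in RT_FAP41BBL against RT.

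Tnfrsf9 encodes 4-1BB, the receptor that the agonist engages, which sustains the division and survival of activated CD8 T cells. It stood at 25.4, 33.8 and 32.0 CPM in RT_FAP41BBL, 36.2, 27.5 and 29.4 CPM in RT, 27.5, 34.2 and 36.9 CPM in FAP41BBL, and 20.5, 20.6 and 24.3 CPM in control. The 9 treated libraries all lay above the 3 control libraries, the nearest at 25.4 and 24.3 CPM, and the treated groups overlapped one another. Each comparison used the same 3 control libraries. Of all genes, 20.0% in RT_FAP41BBL, 14.9% in RT and 5.7% in FAP41BBL were higher than control without overlap. The share that was higher in all 3 groups was not counted. No change of Tnfrsf9 passed: the log2 change against control was 0.48 ± 0.15 (SE) for RT_FAP41BBL (adjusted p = 0.0691), 0.51 ± 0.15 for RT (adjusted p = 0.0506) and 0.59 ± 0.15 for FAP41BBL (adjusted p = 0.600). The 95% intervals ran from 0.16 to 0.81, 0.19 to 0.83 and 0.27 to 0.92 in that order.

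The RT value lay close to the threshold and crossed it under some settings, at an adjusted p of 0.0219 by DESeq2 and of 0.0468, 0.0472 and 0.0468 without FAP41BBL replicate 1, FAP41BBL replicate 3 or RT_FAP41BBL replicate 1. Over the 9 alternatives that leave out no single library it ranged between 0.0200 and 0.441. It did not when the skeletal muscle score was a covariate (log2 0.59 ± 0.27, adjusted p = 0.441). The RT_FAP41BBL value passed by DESeq2 (adjusted p = 0.0333) and without RT_FAP41BBL replicate 1 (0.0478), with a range of 0.0269 to 0.725 over the 9 alternatives. With the T cell score as a covariate it fell to a log2 change of 0.22 ± 0.17 (adjusted p = 0.725). Under that covariate RT against control was 0.64 ± 0.14 and passed (adjusted p = 0.0200). FAP41BBL against control was then 0.43 ± 0.15 and did not pass. The interaction, which is the effect of radiotherapy among agonist-treated tumours minus that among agonist-free tumours, was -0.62 ± 0.21 on the log2 scale (95% interval -1.08 to -0.16, unadjusted p = 0.0118, adjusted p = 0.213).

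Tnfrsf4 and Tnfrsf18, the OX40 and GITR genes, lie 9.55 kb apart on the plus strand of chromosome 4 with no coding gene between them. OX40 sustains helper T cells, and GITR is carried by regulatory and activated T cells. Tnfrsf4 stood at 3.98, 5.68 and 3.65 CPM in RT_FAP41BBL, 2.62, 2.96 and 2.52 CPM in RT, 4.28, 2.46 and 3.54 CPM in FAP41BBL, and 3.37, 2.29 and 2.58 CPM in control. Tnfrsf18 stood at 4.99, 6.75 and 4.02 CPM in RT_FAP41BBL, 3.41, 2.79 and 3.22 CPM in RT, 4.63, 3.50 and 6.03 CPM in FAP41BBL, and 2.69, 3.89 and 3.93 CPM in control. For both genes the RT_FAP41BBL libraries lay above every RT and every control library and overlapped with FAP41BBL, and RT_FAP41BBL replicate 2 was the highest of all 12.

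Neither gene passed in any comparison. In RT_FAP41BBL against RT the log2 change was 0.72 ± 0.25 for Tnfrsf4 (95% interval 0.17 to 1.26, adjusted p = 0.111) and 0.74 ± 0.25 for Tnfrsf18 (0.20 to 1.29, adjusted p = 0.10). DESeq2 gave adjusted p-values of 0.0577 for Tnfrsf4 and 0.0468 for Tnfrsf18 there, the lowest of the 9 alternatives for each gene. The highest was 1.00 for both with the T cell score as a covariate. Under that covariate the log2 change was 0.69 ± 0.44 for Tnfrsf4 and 0.68 ± 0.43 for Tnfrsf18, so the estimates moved little while their SE grew. In RT against control the values were -0.02 ± 0.25 and -0.16 ± 0.25. Over the 12 libraries the log2 levels of these neighbours had a Pearson correlation of 0.67, second among the 28 pairs of tested members. Markers of regulatory T cells, 4 genes none of which was at 0, summed to 43.2 to 53.7 CPM in RT_FAP41BBL, 33.7 to 42.8 CPM in RT, 47.2 to 57.5 CPM in FAP41BBL and 40.3 to 44.5 CPM in control. Ikzf2, with a median of 30.8 CPM, made up most of these sums. It was lower in irradiated than in non-irradiated libraries (log2 -0.32 ± 0.07, adjusted p = 0.0171). Il2ra was higher in RT_FAP41BBL than in control (0.90 ± 0.24, adjusted p = 0.0403). The part of regulatory T cells in the levels of Tnfrsf4 and Tnfrsf18 was not tested.

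Cd27, the receptor of resting and memory T cells, was higher in tumours given both treatments than in those given radiotherapy alone. It stood at 4.20, 4.98 and 6.08 CPM in RT_FAP41BBL, 2.78, 1.29 and 3.04 CPM in RT, 3.45, 4.77 and 4.47 CPM in FAP41BBL, and 3.23, 2.34 and 3.27 CPM in control. The 6 agonist-treated libraries all lay above the 6 agonist-free ones, which 0.315% of all genes did. RT_FAP41BBL against RT gave 5.09 ± 0.945 and 2.37 ± 0.946 CPM (SD, n = 3 each), a log2 change of 1.10 ± 0.30 with a 95% interval of 0.46 to 1.75 and an adjusted p of 0.0485.

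That call was at the edge of the threshold. It held in 1 of 12 fits that each left out 1 library, the one without RT replicate 3 (adjusted p = 0.0248), and was lost in the other 11, with adjusted p-values of up to 0.192 without RT_FAP41BBL replicate 3. Without RT replicate 2, the lowest library, the log2 change was 0.79 ± 0.24 (adjusted p = 0.141). All agonist-treated against all agonist-free libraries gave 4.66 ± 0.879 and 2.66 ± 0.754 CPM (SD, n = 6 each), a log2 change of 0.81 ± 0.21 (95% interval 0.36 to 1.26, adjusted p = 0.0906), which passed by DESeq2 (adjusted p = 0.00945) and without RT replicate 3 (0.0308). Against control, Cd27 in RT_FAP41BBL had a log2 change of 0.79 ± 0.29 (95% interval 0.15 to 1.43, adjusted p = 0.124), which passed without RT replicate 2 (0.0485) and with the compared groups alone (0.0309).

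T cell markers moved with Cd27. Of the 14 T cell genes, none of which is a member, 6 were higher in RT_FAP41BBL than in RT and none lower, where 3.36% of all genes were higher. Their median log2 change was 0.97 beside -0.00 over all genes. Over the 12 libraries, log2 Cd27 and the T cell score, the mean log2 CPM of these genes, had a Pearson correlation of 0.98 and a Spearman correlation of 0.97. Each had a permutation p of 1e-05, the smallest that the 100000 permutations can give. The adjusted p was 0.00096 for each, over 96 relations of 8 members with 12 marker scores. Here and below, the permutations moved libraries freely across the 4 groups, so differences between groups enter these p-values. The Pearson correlation was 0.95 without the 2 libraries farthest from the median score. It was 0.94 for the deviations from the group means, a value that was not tested. With the T cell score as a covariate, the log2 change of Cd27 in RT_FAP41BBL against RT was 0.02 ± 0.29 (adjusted p = 1.00), and 0.03 ± 0.21 in agonist-treated against agonist-free libraries (adjusted p = 1.00). The T cell score lay at 2.98 to 3.41 in RT_FAP41BBL, above RT (1.65 to 2.53) and control (2.14 to 2.86) without overlap. T cell content and treatment therefore cannot be told apart by this covariate in those comparisons, for Cd27 or any other member.

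Cd40 encodes the receptor through which helper T cells license dendritic cells, macrophages and B cells. It was more than doubled in tumours given both treatments. The libraries stood at 20.6, 37.9 and 24.7 CPM in RT_FAP41BBL, 22.2, 10.7 and 21.4 CPM in RT, 16.5, 22.3 and 15.1 CPM in FAP41BBL, and 10.4, 10.8 and 14.5 CPM in control. RT_FAP41BBL and FAP41BBL lay above every control library, whereas RT replicate 2 lay among the controls. RT_FAP41BBL averaged 27.7 ± 9.06 CPM and control 11.9 ± 2.24 CPM (SD, n = 3 each), a 2.33-fold difference with a log2 change of 1.22 ± 0.30, a 95% interval of 0.57 to 1.87 and an adjusted p of 0.0297.

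The Cd40 call held in 7 of 12 fits that each left out 1 library. It was lost without RT_FAP41BBL replicate 2, the highest library (log2 0.93 ± 0.29, adjusted p = 0.119), without RT_FAP41BBL replicate 3 (adjusted p = 0.0683), and without control replicates 1, 2 or 3 in turn (adjusted p = 0.106, 0.123 and 0.0512). It was also lost when genes of low count were kept in the fit (log2 1.21 ± 0.33, adjusted p = 0.0871), and over the 9 alternatives that leave out no single library the adjusted p ranged between 0.000792 and 0.543. The changes for a single treatment did not pass: RT against control was 0.61 ± 0.30 (95% interval -0.04 to 1.25, adjusted p = 0.240) and FAP41BBL against control 0.59 ± 0.30 (-0.05 to 1.24, adjusted p = 0.991). The interaction was 0.02 ± 0.42 on the log2 scale, with a 95% interval of -0.89 to 0.93.

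Markers of macrophages and monocytes, 10 genes with none at 0, summed to 4484 to 5642 CPM in RT_FAP41BBL, 2575 to 4101 CPM in RT, 3510 to 4393 CPM in FAP41BBL and 3037 to 3863 CPM in control. Where 5.59% of all genes were higher in RT_FAP41BBL than in control, 6 of the 10 were, and none of the 10 was lower. Cd40 and the score of these genes had a Pearson correlation of 0.84 (permutation p = 0.00052, adjusted p = 0.0166) and a Spearman correlation of 0.82 (permutation p = 0.00173, adjusted p = 0.0554) over the 12 libraries. The Pearson value was 0.78 without the 2 farthest libraries and 0.61 within groups. Cd40 also had Pearson correlations of 0.76 with the natural killer cell score and 0.65 with the T cell score. Neither passed after adjustment. Within groups the value with the T cell score was 0.68, and values within groups were not tested. Dendritic cell markers, 8 genes with none at 0, summed to 533 to 650 CPM in RT_FAP41BBL and 437 to 496 CPM in control. Of the 8, 1 was higher, Itgax, which averaged 270 CPM in RT_FAP41BBL and 96.1 CPM in control and weighs heavily in the sums. Only 4 of the 8 had a log2 change above 0, and their median was 0.07. B cell markers, 6 genes, summed to 13.5 to 19.7 CPM in RT_FAP41BBL and 7.41 to 8.87 CPM in control, and Fcer2a was at 0 in at least 1 library, while 2 of the 5 tested were higher. With the T cell score as a covariate the log2 change of Cd40 was 0.61 ± 0.31 (adjusted p = 0.543), and with the skeletal muscle score it was 1.38 ± 0.32 (adjusted p = 0.0371). The part of macrophage, dendritic or B cell content was not tested.

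**Figure D3:**
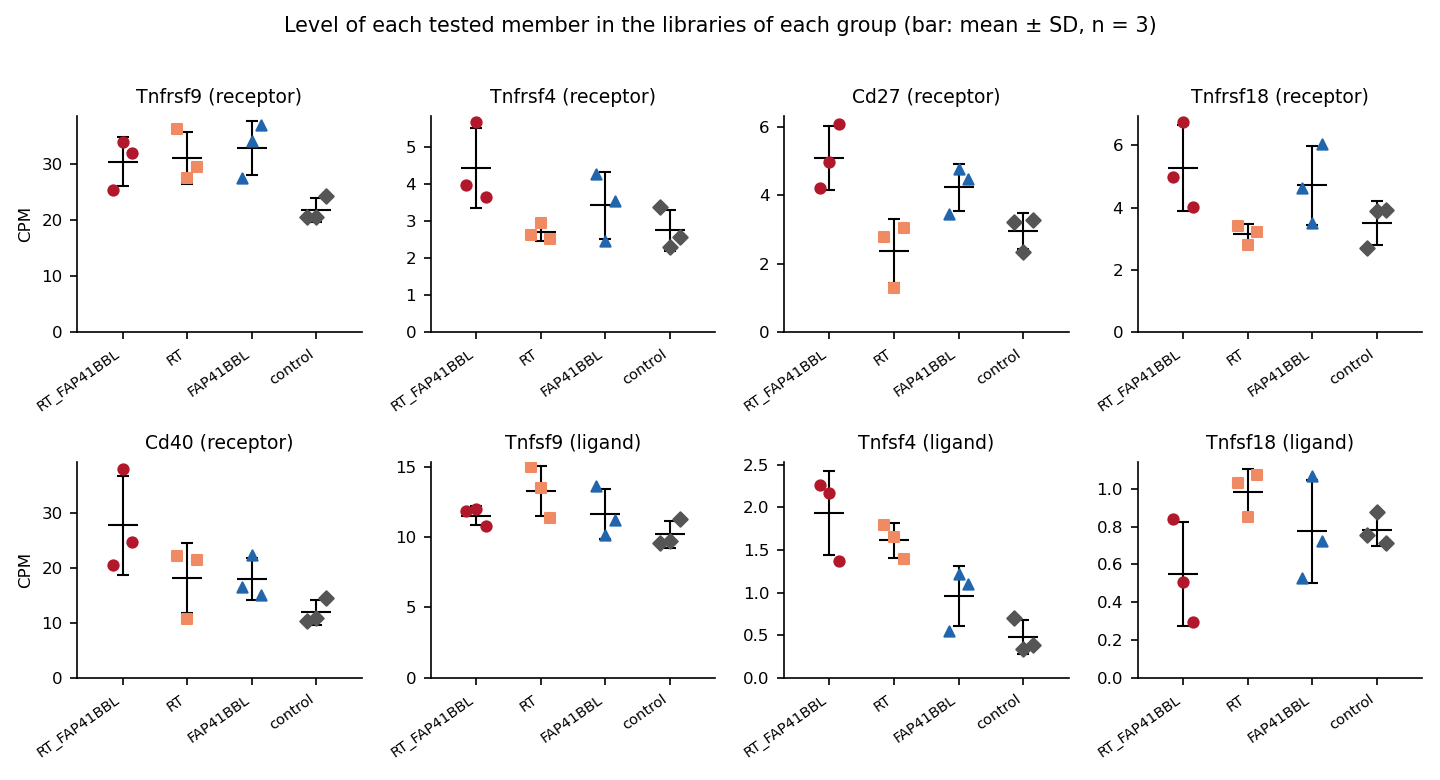
Level (CPM) of the 8 tested members in RT_FAP41BBL, RT, FAP41BBL and control. Points are libraries, long bars the mean and whiskers the SD of 3 libraries. All 9 treated Tnfrsf9 points lie above the control points, the nearest by little, and the share of all genes doing so was not counted. The 6 agonist-treated Cd27 points lie above the 6 agonist-free ones, and the 6 irradiated Tnfsf4 points above the 6 non-irradiated ones.

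**Figure D4:**
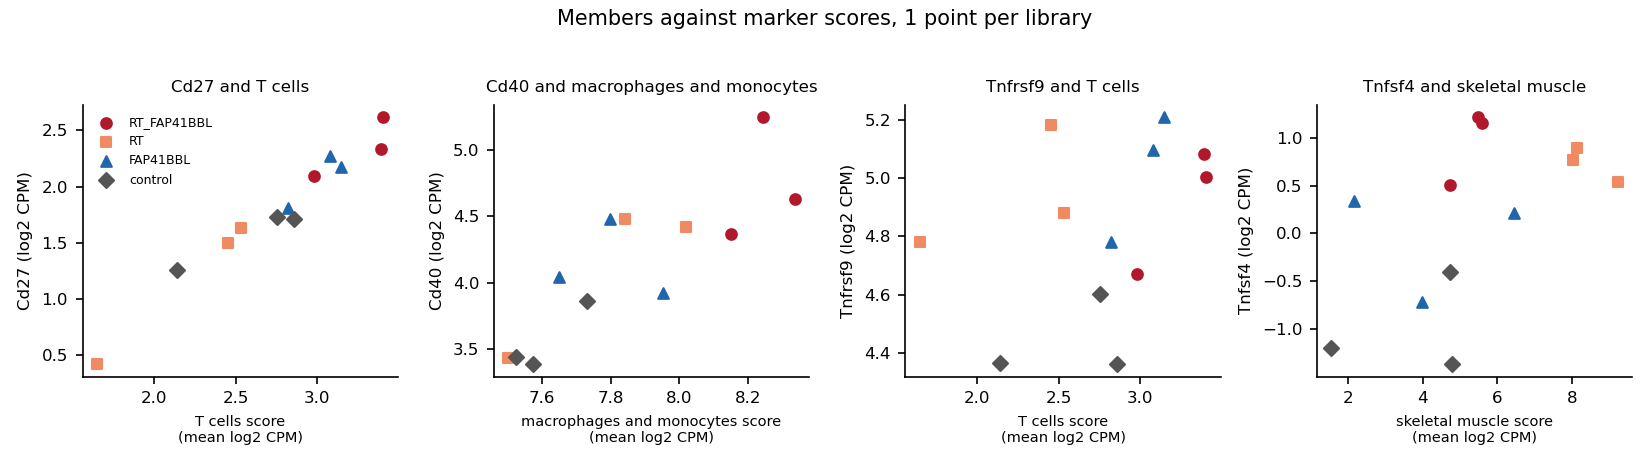
Members (log2 CPM) against marker scores (mean log2 CPM of a marker list), 1 point per library, coloured and shaped by group. Cd27 rises with the T cell score (Pearson 0.98) and Cd40 with the macrophage and monocyte score (0.84). Tnfrsf9 against the T cell score (0.39, and 0.63 within groups) and Tnfsf4 against the skeletal muscle score (0.55) are looser. The 3 RT libraries lie at the right in the last panel. Scores not drawn also rose with these genes, as the natural killer cell score did with Cd40 (0.76) and Tnfsf4 (0.73).

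Among the ligands, Tnfsf9 encodes the mouse's own 4-1BB ligand, made mostly by antigen-presenting cells. It stood at 11.8, 12 and 10.8 CPM in RT_FAP41BBL, 15, 13.5 and 11.4 CPM in RT, 13.6, 10.2 and 11.2 CPM in FAP41BBL, and 9.57, 9.73 and 11.3 CPM in control. The RT libraries lay above the control libraries, the nearest of them by little, and the other groups overlapped with control. The log2 change was 0.18 ± 0.15 for RT_FAP41BBL (95% interval -0.14 to 0.49, adjusted p = 0.509), 0.38 ± 0.15 for RT (0.07 to 0.70, adjusted p = 0.125) and 0.19 ± 0.15 for FAP41BBL (-0.12 to 0.51, adjusted p = 0.999), each against control.

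Tnfsf4 encodes the OX40 ligand of antigen-presenting and endothelial cells. It had the largest change among the 8 tested members in each comparison with control and between irradiated and non-irradiated libraries. In RT_FAP41BBL against RT and in the agonist contrast Cd27 changed more. Tnfsf4 stood at 2.27, 2.17 and 1.37 CPM in RT_FAP41BBL, 1.80, 1.65 and 1.40 CPM in RT, 0.554, 1.21 and 1.10 CPM in FAP41BBL, and 0.702, 0.335 and 0.384 CPM in control. The control values rest on 25, 13 and 14 counts. All 6 irradiated libraries lay above all 6 non-irradiated ones, which 1.78% of all genes did. Irradiated libraries averaged 1.77 ± 0.381 CPM and non-irradiated ones 0.715 ± 0.369 CPM (SD, n = 6 each), a log2 change of 1.39 ± 0.26 with a 95% interval of 0.83 to 1.95 and an adjusted p of 0.00612. That call held in all 12 fits that each left out 1 library, with adjusted p-values of 0.00579 to 0.0206.

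Against control, Tnfsf4 was 4.08-fold higher in RT_FAP41BBL, at 1.93 ± 0.494 and 0.474 ± 0.199 CPM (SD, n = 3 each; log2 2.03 ± 0.37, 95% interval 1.22 to 2.84, adjusted p = 0.00824). In RT it was 3.40-fold higher than in control, at 1.61 ± 0.203 and 0.474 ± 0.199 CPM (log2 1.77 ± 0.37, 0.96 to 2.58, adjusted p = 0.0118). Without control replicate 2 the adjusted p was 0.0518 for RT_FAP41BBL and 0.0586 for RT, and without control replicate 3 it was 0.0522 for RT. FAP41BBL gave a log2 change of 1.01 ± 0.38 (0.19 to 1.83), which did not pass (adjusted p = 0.905). RT_FAP41BBL lay above FAP41BBL in every library, with a log2 change of 1.02 ± 0.36 that did not pass (adjusted p = 0.210), where 12.3% of genes were higher without overlap.

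Skeletal muscle transcripts were high in the RT group: of the 15 marker genes, 8 were higher in RT than in control, with a median log2 change of 4.32. Over all genes 6.57% were higher there. In RT_FAP41BBL the median log2 change of the 15 was 1.06 against control, 0.16 against FAP41BBL and -3.26 against RT. Irradiated libraries as a whole had 2 of the 15 higher than non-irradiated ones, where 6.51% of all genes were higher. With the muscle score as a covariate, the log2 change of Tnfsf4 was 1.97 ± 0.42 in RT_FAP41BBL against control (adjusted p = 0.0220), 1.6 ± 0.64 in RT against control (adjusted p = 0.371) and 1.29 ± 0.42 in irradiated against non-irradiated libraries (adjusted p = 0.238). The RT libraries hold most of the muscle signal, so muscle content and radiotherapy alone cannot be told apart there. With the T cell score as a covariate, the change was 1.84 ± 0.47 in RT_FAP41BBL (adjusted p = 0.148) and 1.90 ± 0.43 in RT against control (adjusted p = 0.0219). Endothelial markers, 8 genes with none at 0, summed to 343 to 396 CPM in RT_FAP41BBL, 229 to 408 CPM in RT, 228 to 407 CPM in FAP41BBL and 237 to 275 CPM in control.

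Tnfsf18, the GITR ligand gene, lies 76.2 kb from Tnfsf4 on the same strand of chromosome 1 with no coding gene between, and its log2 level had a Pearson correlation of 0.02 with that of Tnfsf4 over the 12 libraries. It stood at 0.841, 0.509 and 0.295 CPM in RT_FAP41BBL, 1.03, 0.849 and 1.07 CPM in RT, 0.529, 1.07 and 0.725 CPM in FAP41BBL, and 0.758, 0.875 and 0.714 CPM in control. The RT_FAP41BBL libraries lay below every RT library, the nearest at 0.841 and 0.849 CPM from 33 and 35 counts. The log2 change between these groups was -0.84 ± 0.37 (95% interval -1.65 to -0.02) and did not pass (adjusted p = 0.204).

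The ligands of CD27 and CD40 were near the limit of counting. Cd70 (ENSMUSG00000019489.8, chromosome 17, 57452997 to 57456777) had 15 counts over all 12 libraries and at most 5 in any, with 2 in RT_FAP41BBL, 2 in RT, 9 in FAP41BBL and 2 in control. The summed level in FAP41BBL was 0.0827 CPM with an exact Poisson 95% interval of 0.0378 to 0.157, and in control 0.0180 CPM with an interval of 0.00218 to 0.0651. These intervals overlap and cover counting error only. Cd40lg (ENSMUSG00000031132.2, chromosome X, 56257503 to 56269402) had 39 counts in all, with 8 in RT_FAP41BBL, 11 in RT, 13 in FAP41BBL and 7 in control. A difference between groups was not detectable at this depth for either gene.

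Within a library, the ratio of receptor to ligand in TPM puts both levels on one scale. Tnfrsf9 over Tnfsf9 was 1.25 ± 0.208 in RT_FAP41BBL, 1.11 ± 0.133 in RT, 1.37 ± 0.360 in FAP41BBL and 1.01 ± 0.00862 in control (SD, n = 3 each), and each treated group held a library within or below the control range. Tnfrsf4 over Tnfsf4 was 3.17 ± 0.694 in RT_FAP41BBL, 2.27 ± 0.267 in RT, 5.83 ± 4.06 in FAP41BBL and 8.26 ± 1.55 in control, so every irradiated library, at 1.96 to 3.60, lay below every control library, at 6.48 to 9.24. Tnfrsf18 over Tnfsf18 was 14.8 ± 5.88 in RT_FAP41BBL, 4.34 ± 0.233 in RT, 9.20 ± 4.14 in FAP41BBL and 6.10 ± 1.32 in control, and RT_FAP41BBL, at 8.05 to 18.5, lay above RT, at 4.07 to 4.48. No test was run on these ratios, and a ligand with few counts makes a ratio uncertain. Tnfsf18 had 33, 19 and 11 counts in RT_FAP41BBL, and Tnfsf4 had 25, 13 and 14 counts in control.

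**Figure D5:**
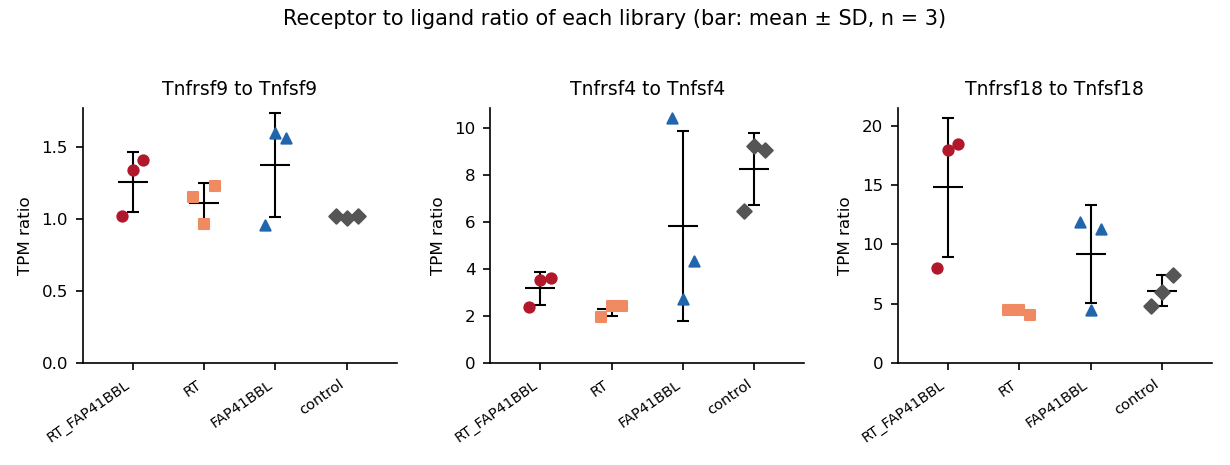
Ratio of receptor to ligand TPM in each library of RT_FAP41BBL, RT, FAP41BBL and control for the 4-1BB, OX40 and GITR pairs. Points are libraries, long bars the mean and whiskers the SD of 3. The OX40 ratio is lower in every irradiated library than in any control library, and the GITR ratio is higher in every RT_FAP41BBL library than in any RT library.

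Over all genes, 5.59% were higher in RT_FAP41BBL against control, with a median log2 change of 0.01. Of 24 TRAF adaptor and NF-kB genes that act below these receptors, all tested, 4 were higher there and none lower, with a median of 0.14. They were Traf1, an adaptor that binds 4-1BB (25.7 ± 5.10 and 15.4 ± 1.41 CPM, SD, n = 3 each; log2 0.74 ± 0.14, adjusted p = 0.00827), the NF-kB cofactor gene Bcl3 (0.76 ± 0.15, adjusted p = 0.0107), the NF-kB subunit gene Rel (0.60 ± 0.12, adjusted p = 0.0119) and Birc3, an inhibitor of apoptosis that joins TRAF complexes (0.48 ± 0.12, adjusted p = 0.0247). In RT against control 4 of 24 were higher and none lower, namely Traf1, Nfkbib, Tank and Bcl3, with log2 changes of 0.41 to 0.52. Over all genes 6.57% were higher there. The median log2 change of the 24 was 0.10 in FAP41BBL against control and 0.02 in RT_FAP41BBL against RT. Over all genes these medians were 0.0091 and -0.0027.

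Of 14 tested genes of the BCL2 family, 5 were higher and none lower in RT_FAP41BBL against control, with a median log2 change of 0.35, and 4 were higher and none lower in RT_FAP41BBL against RT, with a median of 0.23. Over all genes 5.59% and 3.36% were higher in these comparisons, in that order. The copies Bcl2a1d, Bcl2a1a and Bcl2a1b, which encode proteins that protect blood cells from death, were higher in both. Bcl2a1b had a log2 change of 1.05 ± 0.29 (adjusted p = 0.0429) against control and 1.25 ± 0.29 (adjusted p = 0.0285) against RT. Bcl2a1d had a log2 change of 1.42 ± 0.23 (adjusted p = 0.00469) against control and 1.17 ± 0.23 (adjusted p = 0.0155) against RT. These copies are nearly identical and may split reads among them, which makes the value of any single copy uncertain. Of the others that rose against control, Bbc3 (0.71 ± 0.19, adjusted p = 0.0367) and Bax (0.51 ± 0.14, adjusted p = 0.0414) promote cell death rather than survival. Bmf, which also promotes death, fell to 7.93 ± 1.30 CPM in RT, against 15.9 ± 1.17 CPM in control (SD, n = 3 each; log2 -1.0 ± 0.15, adjusted p = 0.00242), and was higher in RT_FAP41BBL than in RT (0.80 ± 0.15, adjusted p = 0.0134).

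Of 13 other ligands of the TNF superfamily, all tested, 5 were higher and none lower in RT_FAP41BBL against control, with a median log2 change of 0.71. Over all genes 5.59% were higher there, with a median of 0.01, and 3.36% were higher in RT_FAP41BBL against RT. Tnf, the founding cytokine of the family, reached 23.4 ± 6.58 CPM in RT_FAP41BBL and 12.2 ± 4.96 CPM in RT, against 3.44 ± 1.09 CPM in control (SD, n = 3 each), with log2 changes of 2.76 ± 0.36 (adjusted p = 0.00246) and 1.82 ± 0.35 (adjusted p = 0.00894). Tnfsf10, the TRAIL gene, rose by 0.95 ± 0.18 on the log2 scale in RT_FAP41BBL against control (adjusted p = 0.00866), and Tnfsf8, the CD30 ligand gene, by 1.18 ± 0.26 (adjusted p = 0.0183). In RT_FAP41BBL against RT, 3 of 13 were higher: Ltb, a lymphotoxin gene (1.01 ± 0.23, adjusted p = 0.0263), Tnfsf13b, which encodes the B cell survival factor BAFF (1.5 ± 0.34, adjusted p = 0.0278), and Tnfsf15 (1.07 ± 0.29, adjusted p = 0.0495).

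Over all genes, 5.59% were higher in RT_FAP41BBL against control and 6.57% in RT against control. In RT_FAP41BBL against RT 3.36% were higher (5.76% passed in either direction). Of 22 other TNF receptor genes 20 were tested. In RT_FAP41BBL against control 3 were higher and none lower (median log2 change 0.36): Tnfrsf11a, the RANK gene (0.63 ± 0.13, adjusted p = 0.0143), Tnfrsf26 (0.70 ± 0.17, adjusted p = 0.0262) and Tnfrsf13b, the TACI gene of B cells (0.63 ± 0.17, adjusted p = 0.0368). In RT against control 4 were higher and none lower (median 0.23), led by Eda2r, the receptor of an ectodysplasin isoform, at 9.46 ± 2.91 and 2.11 ± 0.869 CPM (SD, n = 3 each; log2 2.16 ± 0.38, adjusted p = 0.00532), and Tnfrsf10b, the mouse TRAIL receptor (0.56 ± 0.11, adjusted p = 0.00805). In RT_FAP41BBL against RT 1 was higher, Tnfrsf13b (0.62 ± 0.16, adjusted p = 0.0473), and 1 lower, Tnfrsf10b (-0.56 ± 0.11, adjusted p = 0.0155).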

How the data were processed

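Polyadenylated RNA from 12 tumours was sequenced as read pairs from a stranded library, per the labels' protocols. The authors deposited unnormalised read-pair counts for every gene, made with featureCounts 1.6.0 on GRCm39 with the GENCODE M33 annotation and the reverse strand setting, per the file headers. The exon length in the same tables, also from the file headers, was used for TPM. Per the submitters' processing notes, the tools also included limma, edgeR, FastQC 0.11.8 and STAR 2.7.9a. Symbols were matched by identifier for 51948 of 56884 genes (91.3%), from a GENCODE annotation of GRCm38.

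Counts were tested in R 4.3.3 with edgeR 4.0.16: filterByExpr, TMM factors, a single fit of the 4 groups to all 12 libraries (8 residual degrees of freedom, common coefficient of variation 0.205), the robust quasi-likelihood test and Benjamini-Hochberg adjustment over 17757 genes. Unless another tool is named, adjusted p-values come from this test. Irradiated and agonist contrasts average the log2 changes of their groups. Scores are mean log2 CPM with a prior count of 2. The steps were tested on simulated counts. Replicates were no copies of one another (smallest chi-square per degree of freedom 17.7).

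The text names all 10 members, up to 4 genes per list and comparison with the smallest p, the 3 genes most like each tested member, and neighbours within the family. Beyond these, Bcl2a1b is named in RT_FAP41BBL against control as a copy of Bcl2a1d and Bcl2a1a. Members, lists and tests were chosen with earlier results of these data known. Alternatives were DESeq2 1.42.0, limma-voom (limma 3.58.1), RLE factors, library totals, all genes without the low-count filter, a replicate block, the compared groups alone, T cell or skeletal muscle scores as covariates, and each library left out.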

Additional observations from a re-analysis of the deposited data

How the results depend on the processing

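With 3 libraries per group, several calls lie near the threshold. Of 1320 values of the 64 member changes under alternatives, 1266 kept their sign and 54 did not, none of those called before or after. The count of members called in RT_FAP41BBL against control, 2 as reported, was 3 with DESeq2, 1 without the low-count filter, 1 with the replicate block, 4 with the compared groups alone and 0 with the T cell score as a covariate, and 0 to 3 with single libraries left out. In RT against control, 1 as reported, it was 2 with library totals, without the low-count filter, with DESeq2 and with the T cell score, 0 with the skeletal muscle score, and 0 to 2 with single libraries left out. In RT_FAP41BBL against RT, 1 as reported, it was 0 with RLE factors, the compared groups alone, the skeletal muscle score or the T cell score, 2 with DESeq2, and 0 to 1 with single libraries left out. Between irradiated and non-irradiated libraries, 1 as reported, it was 2 with DESeq2 and with the T cell score, 0 with the skeletal muscle score, and 1 to 2 with single libraries left out. For the agonist contrast, 0 as reported, it was 2 with DESeq2 and 0 to 1 with single libraries left out. For any difference among the groups, 1 as reported, it was 2 with library totals, 3 without the filter, 4 with DESeq2, 0 with the skeletal muscle score, and 0 to 2 with single libraries left out. The cause was not tested, and fits of fewer samples moved the counts both up and down.

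Counts over all genes moved more. RT_FAP41BBL against control had 1404 genes, 351 to 1941 with single libraries left out and 11 to 3223 under the other alternatives. RT against control had 1709, with 805 to 1987 and 3 to 2507 in the same order. FAP41BBL against control had 1, with 0 to 5 and 0 to 48. RT_FAP41BBL against RT had 1022, with 70 to 2305 and 1 to 2063, and against FAP41BBL 168, with 0 to 411 and 93 to 774. The interaction had 27, with 0 to 269 and 0 to 633, the irradiated contrast 1787, with 869 to 2046 and 111 to 2596, the agonist contrast 62, with 2 to 1092 and 0 to 894, and any difference 2002, with 1027 to 2469 and 492 to 3664.

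The replicate numbers did not pair the samples: 6 of 18 same-number pairs deviated together with a correlation over 0.1 (range -0.34 to 0.43), and 5 of 12 libraries correlated best with their own number. With the replicate block, Cd40 in RT_FAP41BBL against control had an adjusted p of 0.0576 (log2 1.22 ± 0.33), and the other calls of members held.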

Other observations

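For each tested member the 3 genes with the most similar log2 level over the 12 libraries were picked from 11759 genes, so high values are selected and carry no test. Cd40 was closest to Cd274, the gene of the checkpoint ligand PD-L1 (Pearson 0.98, 59.4 to 276 CPM), Slc15a3, a peptide transporter gene (0.97), and Gbp4, an interferon-induced GTPase gene (0.96). Cd27 was closest to Slc17a6 (0.97, 0.655 to 5.17 CPM), Arhgap15 (0.97) and Mag (0.96). Tnfsf9 was closest to Tuft1 (0.94), Tarbp2 (0.92) and the BCL2 family gene Bid (0.91). Tnfsf4 was closest to Gzmb, a granzyme of cytotoxic cells (0.93, 14.2 to 110 CPM), Rap2c (0.92) and Necap1 (0.91).

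Tnfrsf9 was closest to Arl8a (0.85), Nos2, the inducible nitric oxide synthase gene (0.85, 23.3 to 61.7 CPM), and Slc30a1 (0.84). The genes closest to Tnfrsf4 were Rbfa (0.89), Uimc1 (0.88) and Rab29 (0.87). Those closest to Tnfrsf18 were Ubxn11 (0.86), Nckipsd (0.86) and Mier2 (0.85), so the neighbours Tnfrsf4 and Tnfrsf18 shared none of their 3. Tnfsf18 had the lowest values, with Rrm2b (0.83), Lgalsl (0.82) and Msi2 (0.81).

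Between members, log2 levels correlated most for Tnfrsf9 and Cd40 (0.68), and were most opposed for Tnfrsf4 and Tnfsf18 (-0.64). Of the family members that lie close to one another, Cd70 lies 38.2 kb from Tnfsf9 and 39.7 kb from Tnfsf14 on chromosome 17, and Cd27 lies 69.6 kb from Ltbr and 112 kb from Tnfrsf1a on chromosome 6. The log2 levels of Cd27 had a Pearson correlation of -0.25 with Ltbr and 0.26 with Tnfrsf1a over the 12 libraries. Cd27 and the macrophage and monocyte score had a Pearson correlation of 0.76, which did not pass after adjustment, and of 0.90 within groups. Cd27 also correlated with the dendritic cell score (Pearson 0.89, permutation p = 0.00012, adjusted p = 0.00576; Spearman 0.84, permutation p = 0.00118, adjusted p = 0.0554; 0.82 without the 2 farthest libraries and 0.70 within groups).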
